A study of Mus musculus with 4 samples.

Results

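Txnip, the other alpha-arrestin genes Arrdc1, Arrdc2, Arrdc3 and Arrdc4, the sugar-sensing transcription factor genes Mlxip and Mlx, and the beta-arrestin genes Arrb1 and Arrb2 form a set of 9 genes, out of 36445 in the deposited table. They were picked by symbol, and each symbol matched 1 entry. The cells were MC38, a mouse colon cancer line, given 5-fluorouracil (5-FU, a pyrimidine analogue used in chemotherapy) at 1 mM in 2 libraries, or PBS, its vehicle, in 2 libraries, for 24 h. Both groups were grown in DMEM with serum and sequenced from polyadenylated RNA. The choice of the 9 genes was made with their 5-FU and PBS values in view, so those values are given as a description. Where limma calls of the members are counted, they belong to that description and are not read as tests.

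Arrestins are adaptor proteins. Alpha-arrestins carry PPxY motifs that recruit NEDD4-family ubiquitin ligases to membrane proteins, and Txnip also binds thioredoxin and draws the glucose transporters GLUT1 and GLUT4 into the cell. Mlxip encodes MondoA, which pairs with Mlx. When glucose-6-phosphate is plentiful the pair enters the nucleus and binds carbohydrate response elements, with Txnip and Arrdc4 among its best known targets. Beta-arrestins silence G protein-coupled receptors after phosphorylation and link them to clathrin and to signalling kinases.

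The promoters of Txnip and Arrdc4 are printed because their genes are the textbook MondoA targets and lay at very different levels from each other here. They are the 250 bases before the RefSeq start sites on GRCm38.p6, at chr3:96557707-96557956 on the plus strand for Txnip and chr7:68749239-68749488 on the minus strand for Arrdc4. Capitals mark 3 motifs searched on both strands. They are CACGTG (the E-box), CCAAT (the NF-Y box, ATTGG on the other strand) and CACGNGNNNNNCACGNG. The last is a pair of E-box-like elements 5 bases apart, a form of carbohydrate response element. An E-box can lie inside the paired motif, but the marked matches do not overlap.
Txnip: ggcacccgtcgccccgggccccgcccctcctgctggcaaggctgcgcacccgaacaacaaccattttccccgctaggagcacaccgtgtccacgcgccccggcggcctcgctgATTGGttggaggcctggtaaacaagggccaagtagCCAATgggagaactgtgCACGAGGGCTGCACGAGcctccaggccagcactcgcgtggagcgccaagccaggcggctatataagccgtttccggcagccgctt
Arrdc4: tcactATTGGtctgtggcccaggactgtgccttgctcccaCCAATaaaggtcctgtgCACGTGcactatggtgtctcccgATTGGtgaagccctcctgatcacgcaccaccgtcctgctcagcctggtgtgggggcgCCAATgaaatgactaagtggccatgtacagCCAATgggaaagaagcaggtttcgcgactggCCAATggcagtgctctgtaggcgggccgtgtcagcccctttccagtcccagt

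The Txnip window held the paired motif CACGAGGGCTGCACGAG at -85 to -69 from the start site, a CCAAT at -102 to -98 and an inverted one at -137 to -133. Of 32851 promoter windows of 300 bases in the RefSeq table, 16 held the paired motif (0.0487%), and Txnip was the sole gene among the 7 of the set with a promoter in that table. Looser forms of the element were not searched, so both statements hold for this string alone. The Arrdc4 window held an E-box at -193 to -188 and 6 CCAAT boxes. E-boxes occurred in 7.15% of all windows, and 6 or more CCAAT boxes in 0.0791%. Mlx also held an E-box, at -40 to -35. A CCAAT box occurred in 6 of these 7 genes and in 37.4% of all windows. Besides Txnip, 14 genes with the paired motif were in the table and 8 were tested, of which Rbbp4 rose, Nfkb2 and A430005L14Rik fell and 5 did not pass. Of all tested genes 22.1% rose and 31.2% fell, so these counts say nothing particular about genes with the motif. A match in letters is not evidence of binding.

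The libraries had about 20.8 and 20.6 M reads in 5-FU and 41.3 and 41.6 M reads in PBS, estimated from the step between low FPKM values (fragments per kilobase of transcript, scaled to sequencing depth). The PBS libraries differed from each other more than the 5-FU libraries did, with a median absolute log2 difference of 0.0729 between the 5-FU libraries and 0.271 between the PBS libraries. The line's colon epithelial label was not borne out by its markers: of 9 epithelial genes, Epcam, Cdh1 and Krt8 included, 0 reached 1 FPKM in 2 libraries, while 6 of 6 mesenchymal genes did. Of 6 leukocyte markers 1 did, the lysosomal gene Cd68, at 18.0 and 16.0 FPKM in 5-FU and 6.29 and 19.3 FPKM in PBS, and Ptprc was at most 0.0342 FPKM. Over 11644 tested genes (1 FPKM or more in 2 or more libraries), the median log2 difference of 5-FU minus PBS was -0.10 on the log2(FPKM + 1) scale, the scale of all log2 differences below. It moved to 0.01 with median-ratio scaling and to 0.02 with quantile normalization.

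Txnip was far higher in 5-FU and Arrb1 far lower, while most of the remaining members differed by less. Of the 8 members that passed the filter, 1 was past the limma threshold higher (Txnip), where 22.1% of all tested genes were, and 3 lower (Arrb1, Arrdc1 and Arrdc2), where 31.2% of all tested genes were; in either direction the background was 53.3%. The Arrdc2 call was lost with quantile normalization, which left 2 lower, and the replicate block added Arrdc3, which made 4 lower. Median-ratio scaling added Mlx and Arrb2 to the higher ones. Leaving out a 5-FU library, whichever it was, made these counts 1 and 1, leaving out PBS replicate 1 made them 3 and 4, and leaving out PBS replicate 2 made them 2 and 5. In all 8 the 5-FU libraries lay on one side of the PBS libraries, 3 higher and 5 lower, against 35.9% and 45.1% of all tested genes and 81.0% in either direction. These counts, the limma calls included, follow from the contrast used to choose the genes. They describe the members and are not read as tests.

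**Figure D1:**
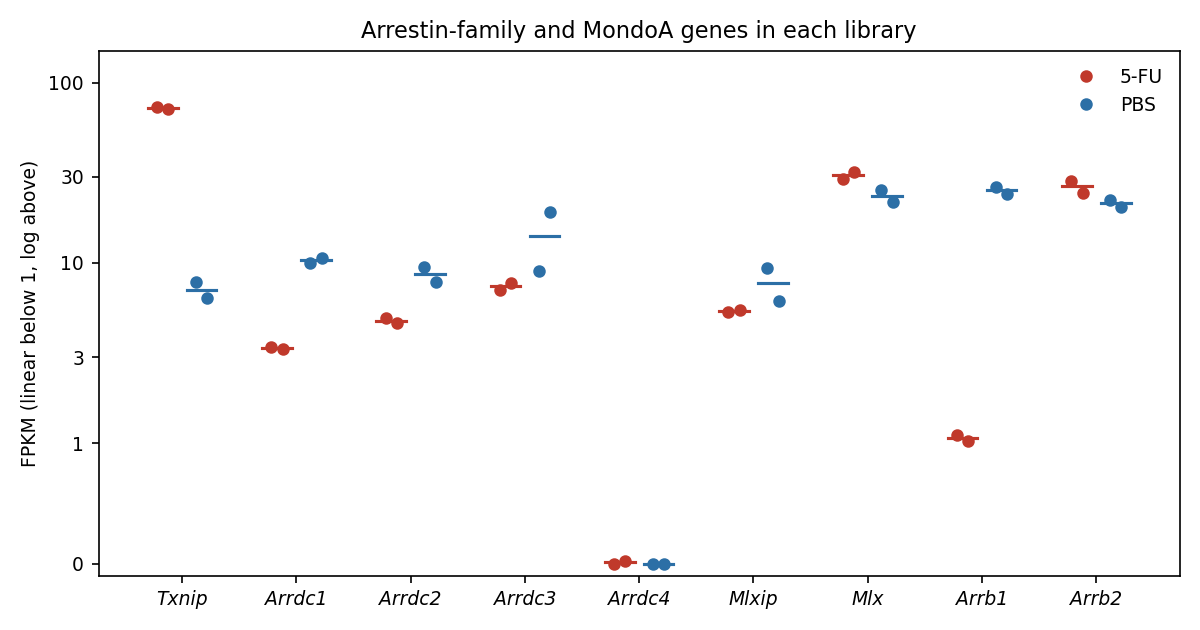
FPKM (linear below 1, log above) of the 9 genes in each library, with 5-FU in red left of PBS in blue; points are libraries and bars are means of 2. Txnip sits at 73.6 and 71.7 in 5-FU, against 7.86 and 6.36 in PBS, and Arrb1 at 1.11 and 1.03 in 5-FU, against 26.5 and 24.0 in PBS.

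Txnip (ENSMUSG00000038393, chromosome 3, 96557957 to 96561883, plus strand, GRCm38) measured 73.6 and 71.7 FPKM in the 5-FU libraries, against 7.86 and 6.36 FPKM in the PBS libraries. The lower 5-FU library was 9.13 times the higher PBS library, so the groups were far apart. The means were 72.7 ± 1.30 FPKM in 5-FU and 7.11 ± 1.06 FPKM in PBS (SD, n = 2 each, as for every mean below), a 10.2-fold difference and a log2 difference of 3.19 ± 0.137 (SE). By level, Txnip stood at the 92.2nd percentile of tested genes in 5-FU and at the 41.4th in PBS. Its log2 difference was the 15th largest rise of the 11644 tested genes on the log2(FPKM + 1) scale, which understates rises of low genes. The gene Pygm, at 0.128 FPKM in PBS, rose 60.6-fold but had a smaller log2 difference, at 2.96. Among the 4508 tested genes with a PBS mean within a factor of 2 of that of Txnip, 1 gene, Txnip itself, showed a rise as large. The antisense gene Gm15441 overlaps Txnip on the other strand and measured 0.258 and 0.231 FPKM in 5-FU and 0.0577 and 0.301 FPKM in PBS. Hfe2, the nearest protein-coding gene before Txnip on its strand, ends 28746 bases away and was at most 0.0240 FPKM in any library.

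**Figure D2:**
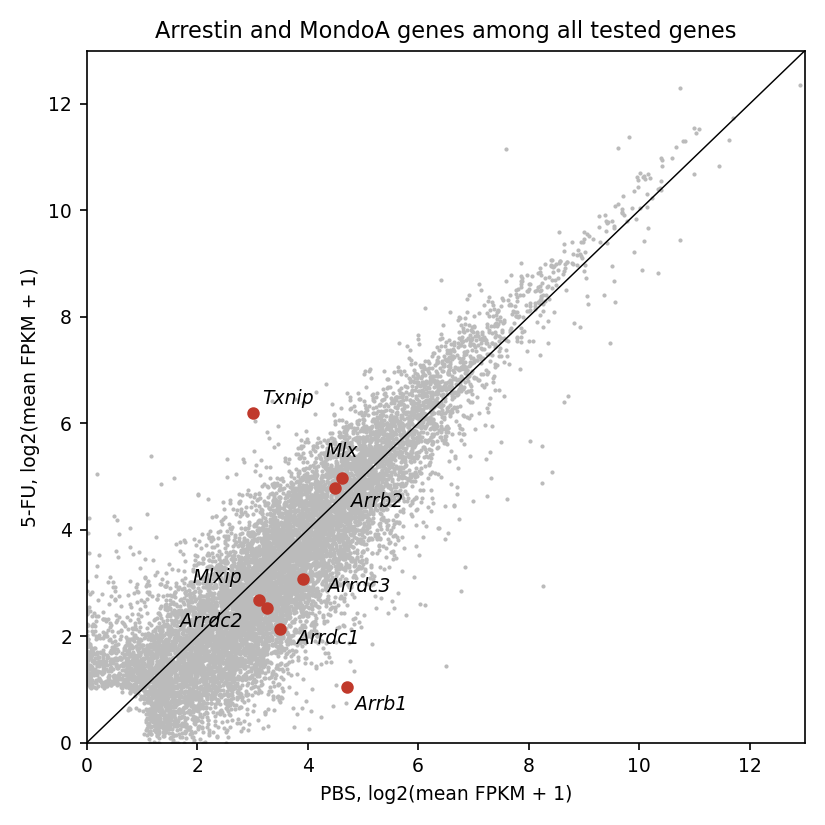
Mean expression of each of the 11644 tested genes, as log2(mean FPKM + 1), in 5-FU (vertical) against PBS (horizontal), with the 8 tested members in red and the line of equal levels. Txnip lies far above the line, Arrb1 far below it, and Mlx and Arrb2 just above it.

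The other expressed alpha-arrestins were lower in 5-FU. Arrdc1, which takes part in budding of vesicles from the plasma membrane, measured 3.43 and 3.32 FPKM in 5-FU, against 10.0 and 10.6 FPKM in PBS. That is 3.07-fold lower, a log2 difference of -1.37 ± 0.127 (SE), with the libraries of each group close together. Arrdc2 measured 4.95 and 4.62 FPKM in 5-FU, against 9.50 and 7.81 FPKM in PBS. It was 1.81-fold lower (log2 difference -0.73 ± 0.151). Its groups did not overlap, and the lowest PBS library lay well above both 5-FU libraries.

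Arrdc3, which routes integrin beta 4 toward degradation, measured 7.04 and 7.78 FPKM in 5-FU, against 9.07 and 19.2 FPKM in PBS. The PBS libraries were 2.12-fold apart, so the 1.91-fold lower mean in 5-FU rested largely on PBS replicate 2. Its log2 difference was -0.76 ± 0.353, at -1.27 with PBS replicate 1 left out and -0.26 with PBS replicate 2 left out. Arrdc4, an alpha-arrestin that, like Txnip, acts on GLUT1, was listed at 0 and 0.0243 FPKM in 5-FU and at 0 in both PBS libraries. The single value above 0 equals about 2.03 estimated reads. Reads up to 3 would correspond to 0.0357 and 0.0360 FPKM in 5-FU and to 0.0180 and 0.0178 FPKM in PBS at the estimated depths. Each library lay below its limit, and a difference in Arrdc4 within these limits was not detectable at this depth. These limits cover counting error only.

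The makeup of alpha-arrestin RNA differed between the groups. Txnip made up 82.7% and 82.0% of the summed alpha-arrestin FPKM in the 5-FU libraries, against 21.6% and 14.4% in the PBS libraries. The sum of all 5 was 89.0 and 87.5 FPKM in 5-FU and 36.5 and 44.0 FPKM in PBS. Without Txnip it was 15.4 and 15.7 FPKM in 5-FU and 28.6 and 37.7 FPKM in PBS, so the rest of the family was lower in total while Txnip was higher. In bulk RNA, a lower level from fewer expressing cells and from less RNA per cell cannot be told apart.

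**Figure D3:**
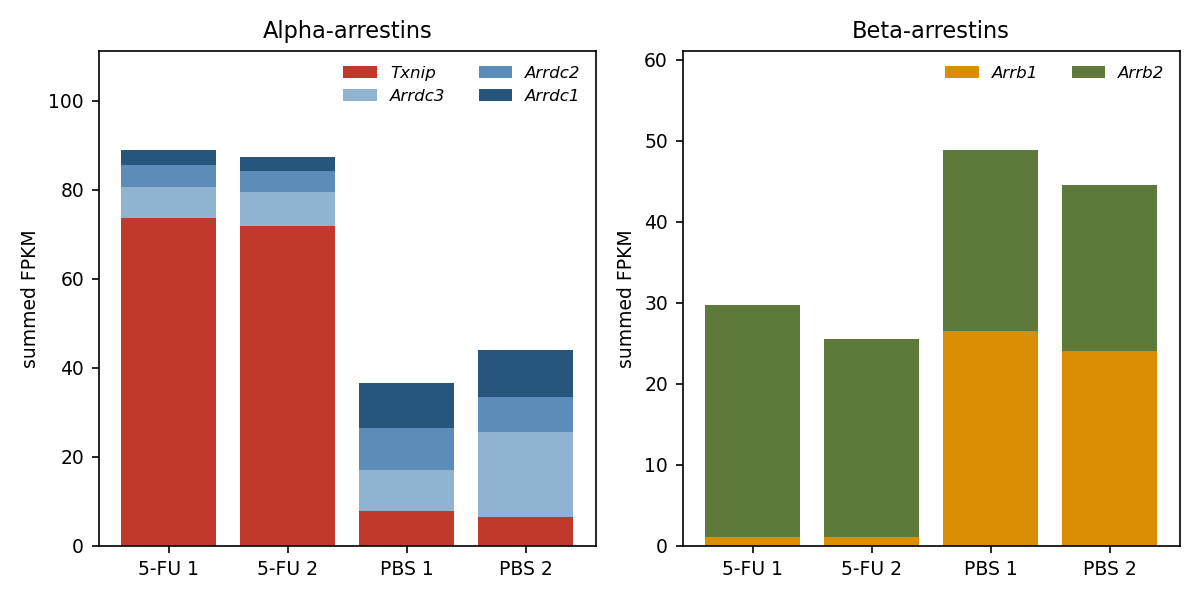
Stacked FPKM of the expressed alpha-arrestin genes (left) and of the beta-arrestin genes (right) in each of the 4 libraries, with 5-FU left of PBS. Txnip fills 82.7% and 82.0% of the alpha-arrestin sum (Arrdc4, at or near 0, is not drawn) in 5-FU and 21.6% and 14.4% in PBS, and Arrb1 fills 3.73% and 4.03% of the beta-arrestin sum in 5-FU and 54.1% in each PBS library.

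The MondoA pair differed little. Mlxip (chromosome 5, 123394798 to 123457932) measured 5.35 and 5.47 FPKM in 5-FU, against 9.32 and 6.14 FPKM in PBS. The groups did not overlap, but the PBS libraries were 1.52-fold apart and the 5-FU libraries 1.02-fold apart. The log2 difference was -0.42 ± 0.214, at -0.16 with PBS replicate 1 left out and -0.69 with PBS replicate 2 left out. Mlx measured 29.3 and 31.7 FPKM in 5-FU, against 25.4 and 21.7 FPKM in PBS (log2 difference 0.36 ± 0.130). The ratio of Mlx to Mlxip FPKM was 5.48 and 5.81 in 5-FU and 2.73 and 3.54 in PBS. Mlx overlaps Psmc3ip on the opposite strand, at 7.06 and 5.40 FPKM in 5-FU and 7.58 and 7.46 FPKM in PBS, and starts 657 bases after Coasy on its own strand. Coasy measured 10.6 and 10.4 FPKM in 5-FU and 11.3 and 14.0 FPKM in PBS. No source used here gives the strand setting of the counting, so reads of Mlx and Psmc3ip may be shared.

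The beta-arrestins parted. Arrb1 (ENSMUSG00000018909, chromosome 7, 99535466 to 99606771, plus strand) measured 1.11 and 1.03 FPKM in 5-FU, against 26.5 and 24.0 FPKM in PBS, or about 258 and 237 estimated reads in 5-FU against 12220 and 11183 in PBS, where depth was also higher. Both 5-FU libraries stood near the filter of 1 FPKM and both PBS libraries far above it. The mean was 23.6-fold lower (1.07 ± 0.0561 FPKM in 5-FU and 25.2 ± 1.70 FPKM in PBS), a log2 difference of -3.66 ± 0.132. This was the 7th largest fall of the 11644 tested genes on the log2(FPKM + 1) scale, which understates falls to low levels. In level Arrb1 stood at the 7.69th percentile in 5-FU and at the 77.2nd in PBS. Among 3546 tested genes with a PBS mean within a factor of 2 of its own, 4 fell at least as far, Arrb1 included.

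Arrb2, whose protein shares many functions with that of Arrb1, measured 28.6 and 24.5 FPKM in 5-FU, against 22.4 and 20.4 FPKM in PBS (log2 difference 0.29 ± 0.133). The groups were separate but close, the lower 5-FU library being 1.09 times the higher PBS library. The ratio of Arrb2 to Arrb1 FPKM was 25.8 and 23.8 in 5-FU and 0.848 and 0.849 in PBS. Summed beta-arrestin FPKM was 29.7 and 25.5 in 5-FU and 48.9 and 44.5 in PBS.

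Order of level also differed. In 5-FU the means ran Txnip, Mlx, Arrb2, Arrdc3, Mlxip, Arrdc2, Arrdc1, Arrb1 and Arrdc4, and the libraries of each neighbouring pair did not overlap. In PBS they ran Arrb1, Mlx, Arrb2, Arrdc3, Arrdc1, Arrdc2, Mlxip, Txnip and Arrdc4. There the libraries of Arrb1 and Mlx overlapped, as did those of Mlx and Arrb2, of Arrdc3 and Arrdc1, of Arrdc2 and Mlxip, and of Mlxip and Txnip. Gene length differed among the members as well. Arrb1 spans 71.3 kb and Mlxip 63.1 kb, and the other 7 span at most 12.7 kb. Of 3112 tested genes with a span within a factor of 2 of that of Arrb1, 43.1% fell and 12.2% rose, while of 1868 around the span of Txnip (3.93 kb) 26.9% fell and 27.5% rose. The part of gene span in these differences was not tested.

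By profile over the 4 libraries, the genes most like Txnip were Hba-ps4, Cdo1, Gadd45g, Gng3 and Pygm, with root mean square distances of 0.039 to 0.130 between log2(FPKM + 1) values centred per gene. Gadd45g, a stress-induced growth arrest gene, was the one with a like level in both groups, at 64.8 ± 3.71 FPKM in 5-FU and 7.27 ± 1.47 FPKM in PBS. Pygm, which encodes muscle glycogen phosphorylase, averaged 7.74 FPKM in 5-FU and 0.128 FPKM in PBS. Hba-ps4, Cdo1 and Gng3 averaged 0.135, 0.173 and 1.14 FPKM in PBS. On the log2(FPKM + 1) scale their 66.2-fold, 61.2-fold and 16.4-fold rises lie near the 10.2-fold rise of Txnip. Hba-ps4 is a pseudogene whose reads may be shared with globin genes, which was not tested. It measured 9.24 and 8.68 FPKM in 5-FU and 0.271 and 0 FPKM in PBS. The globin gene Hba-a1 measured 3.31 and 2.81 FPKM in 5-FU and 2.50 and 1.60 FPKM in PBS. Most like Arrb1 were Gas1, Mpp2, Rhob, Gys1 and Fam117b, at distances of 0.054 to 0.249. Gys1, which encodes glycogen synthase, averaged 5.05 ± 0.364 FPKM in 5-FU and 68.8 ± 8.53 FPKM in PBS, and Gas1, a growth arrest gene, 0.619 ± 0.0648 FPKM in 5-FU and 21.03 ± 2.02 FPKM in PBS.

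**Figure D4:**
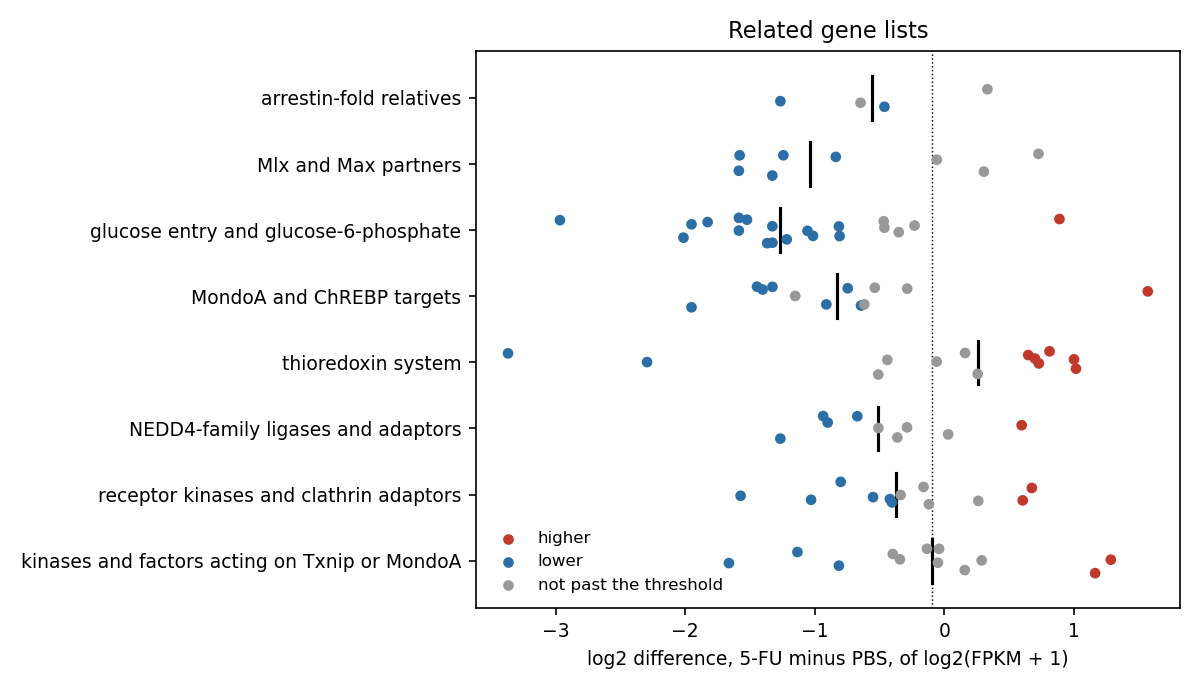
Log2 difference (5-FU minus PBS, of log2(FPKM + 1)) of each tested gene in 8 related lists. Red and blue points passed the limma threshold higher and lower, grey points did not, black bars are list medians and the dotted line is the median of all tested genes at -0.10; the glucose list has its median at -1.27 and the thioredoxin list at 0.26.

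Genes around this set were then read from 8 lists, in which 88 of 111 genes were tested; 13 rose, 42 fell and 33 did not pass, against 22.1% and 31.2% of all tested genes. The larger number of falls over all tested genes (2578 higher, 3628 lower) depended on scaling, with 3193 higher and 3218 lower under median-ratio scaling and 2946 and 2825 under quantile normalization; the lists then held 17 higher and 39 lower, and 14 and 41. Of the 88 genes, 6 met the filter through 1 group alone, being below 1 FPKM in both libraries of the other, and such genes had to differ between the groups; 1 of the calls higher (Gpd1) and 4 of those lower (H6pd and Foxo1, with Slc2a3 and Acacb, named after their values were seen) were of this kind. With either 5-FU library left out, 1 was higher and 5 lower, the error then resting on the wider PBS pair alone, with the lone 5-FU library assumed to vary like it. At an unadjusted p under 0.05, 9 were higher and 33 lower without 5-FU replicate 1, and 8 and 34 without 5-FU replicate 2.

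Genes that bring in glucose or handle glucose-6-phosphate, the signal MondoA reads, were listed with genes of the phosphofructokinase step, and most were lower. Of 20 tested, 15 fell, 1 rose and 4 did not pass, with a median log2 difference of -1.27. By comparison, 31.2% of all tested genes fell and 22.1% rose. Tigar and the Pfk and Pfkfb genes in these counts do not act on glucose-6-phosphate itself. The GLUT1 gene Slc2a1 fell 8.48-fold, measuring 22.7 and 23.3 FPKM in 5-FU and 138.2 and 252.0 FPKM in PBS (log2 difference -2.97 ± 0.300, limma adjusted p = 0.00377). H6pd, the glucose-6-phosphate dehydrogenase of the endoplasmic reticulum, fell 8.13-fold (0.742 ± 0.0638 FPKM in 5-FU and 6.04 ± 0.388 FPKM in PBS, limma adjusted p = 0.0027). It was tested through its PBS level alone, and with no filter its limma adjusted p was 0.0168. The sugar phosphatase gene Tigar rose 1.91-fold (18.0 ± 0.434 FPKM in 5-FU and 9.45 ± 2.73 FPKM in PBS, limma adjusted p = 0.0238), a call lost with no filter on low values. Among genes chosen after their values were seen, the hexokinase gene Hk1, the phosphofructokinase gene Pfkp and G6pdx, which opens the pentose phosphate pathway, fell by 1.33, 1.52 and 1.01 log2. When either 5-FU library was left out, the list held 4 lower and 0 higher (15 and 0 at an unadjusted p under 0.05 without 5-FU replicate 1, 14 and 0 without 5-FU replicate 2); the calls of Hk1, G6pdx and Tigar were lost, and those of Slc2a1, H6pd and Pfkp were kept.

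Genes reported as targets of MondoA or its relative ChREBP, mostly from liver, fell more often than they rose. Of 12 tested, 7 fell, 1 rose and 4 did not pass (median log2 difference -0.83). Over all tested genes 31.2% fell and 22.1% rose. Acaca, Acacb, Elovl6 and Me1 of this list span more than 100 kb, and 56.9% of protein-coding tested genes that long fell. The part of gene span in this count was not tested. Gpd1, a glycerol-3-phosphate dehydrogenase gene, rose to 2.01 and 2.28 FPKM in 5-FU, against 0.0735 and 0.0406 FPKM in PBS (log2 difference 1.57 ± 0.125, limma adjusted p = 0.00285). This call, the list's 1 rise, was tested through the 5-FU level alone; its limma adjusted p was 0.0168 with no filter, and Gpd1 was not tested at a mean of at least 5 FPKM. Hk2, a hexokinase gene that is also on the glucose list, fell 4.23-fold (8.14 ± 0.168 FPKM in 5-FU and 34.5 ± 3.91 FPKM in PBS, limma adjusted p = 0.0027), and the triokinase gene Tkfc fell 3.17-fold. Without either 5-FU library 1 was lower and 1 higher and the Tkfc call was lost. Without PBS replicate 2, 11 were lower and 1 higher.

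Among partners of Mlx and Max, 5 of 8 tested fell and 0 rose past the limma threshold, with a median log2 difference of -1.04. At an unadjusted limma p under 0.05, 5 were lower and 1, Mxd1, named after its value was seen, higher. The shares over all tested genes were 31.2% lower and 22.1% higher. Mga and Mxi1 span 50 to 100 kb, where 43.6% of protein-coding tested genes fell. The repressor gene Mnt, whose protein pairs with both Mlx and Max, fell 3.99-fold (2.17 ± 0.0734 FPKM in 5-FU and 8.65 ± 2.62 FPKM in PBS, limma adjusted p = 0.00649), and Mxi1, a Max partner, fell 3.38-fold (5.78 ± 0.180 FPKM in 5-FU and 19.6 ± 4.01 FPKM in PBS, limma adjusted p = 0.00426). Myc, named after its value was seen, measured 9.92 and 10.2 FPKM in 5-FU and 27.3 and 26.2 FPKM in PBS. Mlxipl, which encodes ChREBP, was at 0 in 3 libraries and at 0.00895 FPKM in PBS replicate 2. With either 5-FU library left out, 0 genes of this list passed in limma (4 lower and 0 higher at an unadjusted p under 0.05); the counts were 6 lower and 2 higher with PBS replicate 1 left out, and 5 and 2 with PBS replicate 2 left out.

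Kinases and transcription factors reported to act on Txnip or MondoA were split, with 2 of 12 higher, 3 lower and 7 not past the threshold. Over all tested genes 22.1% rose and 31.2% fell. The list median of -0.09 was near the median of all tested genes, -0.10, so these counts say nothing particular about the list. The NF-Y subunit genes Nfyc and Nfya rose 2.42-fold and 2.38-fold; Nfya measured 19.0 ± 0.260 FPKM in 5-FU and 7.98 ± 1.49 FPKM in PBS (limma adjusted p = 0.00605). The third NF-Y subunit gene, Nfyb, named after its value was seen, measured 5.48 and 5.67 FPKM in 5-FU and 7.07 and 8.29 FPKM in PBS and did not pass (limma adjusted p = 0.0689). The FOXO factor genes Foxo3 and Foxo1 fell 4.03-fold and 4.63-fold, and Mtor, named after its value was seen, fell by 0.81 log2. Foxo1 was tested through its PBS level alone, at 0.458 and 0.524 FPKM in 5-FU and 2.10 and 2.45 FPKM in PBS (limma adjusted p = 0.0234 with no filter). The Nfyc call was lost with no filter on low values, where the list held 1 higher and 3 lower. When either 5-FU library was left out, 0 genes passed in limma (2 lower and 2 higher at an unadjusted p under 0.05); the counts were 4 higher and 5 lower with PBS replicate 1 left out, and 3 and 5 with PBS replicate 2 left out.

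The thioredoxin system, which holds the Txnip partners, had 6 of 13 tested genes higher, 2 lower and 5 not past the threshold. Among all tested genes 22.1% were higher and 31.2% lower. The list had a median log2 difference of 0.26. Prdx6 and Txn2, a peroxiredoxin gene and the mitochondrial thioredoxin gene, rose 2.04-fold and 2.02-fold; Prdx6 measured 114.9 ± 1.79 FPKM in 5-FU and 56.4 ± 4.88 FPKM in PBS (limma adjusted p = 0.00432). Txn1, the cytosolic thioredoxin that Txnip binds, was named after its value was seen. It measured 531.4 and 538.3 FPKM in 5-FU and 342.6 and 339.1 FPKM in PBS (limma adjusted p = 0.00895), so Txnip amounted to 0.138 and 0.133 of its level per length in 5-FU and to 0.0229 and 0.0188 in PBS. The sulfiredoxin gene Srxn1 fell 12.7-fold (4.28 ± 0.285 FPKM in 5-FU and 54.2 ± 12.9 FPKM in PBS, limma adjusted p = 0.0027). Ddit4, a stress gene whose product is reported to bind Txnip, fell 5.23-fold (49.8 ± 2.51 FPKM in 5-FU and 260.5 ± 113.6 FPKM in PBS, limma adjusted p = 0.00626). Without either 5-FU library 0 were higher and 1 lower (5 and 2 at an unadjusted p under 0.05 without 5-FU replicate 1, 4 and 2 without 5-FU replicate 2), the calls of Prdx6, Txn2, Txn1 and Ddit4 being lost and that of Srxn1 kept. With PBS replicate 1 left out 7 were higher and 4 lower, and with PBS replicate 2 left out 8 and 4.

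Of the NEDD4-family ligases, which alpha-arrestins recruit, and the Ndfip adaptors, 4 of 9 tested fell, 1 rose and 4 did not pass (median log2 difference -0.51). All 9 span more than 50 kb. Of protein-coding tested genes spanning 50 to 100 kb, 43.6% fell and 12.1% rose (median log2 difference -0.39). At 100 kb or more 56.9% fell and 5.80% rose (median -0.63). Beside these shares the counts say nothing particular about the list. The adaptor gene Ndfip1 fell 2.45-fold (41.0 ± 2.43 FPKM in 5-FU and 100.6 ± 15.7 FPKM in PBS, limma adjusted p = 0.0047) and the ligase gene Smurf1 2.00-fold, while the second adaptor gene Ndfip2 rose 1.65-fold (6.01 ± 0.465 FPKM in 5-FU and 3.63 ± 0.344 FPKM in PBS, limma adjusted p = 0.0244). Itch and Nedd4, ligase genes named after their values were seen, fell by 0.67 and 0.90 log2. The calls of Smurf1 and Ndfip2 were lost with no filter on low values. With either 5-FU library left out, 0 genes passed in limma (3 lower and 0 higher at an unadjusted p under 0.05), and 7 were lower and 1 higher with PBS replicate 1 left out.

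Receptor kinases and clathrin adaptors, the machinery of beta-arrestins, had 6 of 12 tested genes lower, 2 higher and 4 not past the threshold. The list median was -0.37, and over all tested genes 31.2% were lower and 22.1% higher. Grk5 and Ap2b1 span more than 100 kb, and Ap2a2, Cltc and Picalm 50 to 100 kb. Of protein-coding tested genes with such spans, 56.9% and 43.6% fell. The part of gene span in these counts was not tested. Ap2a1, an AP2 adaptor subunit gene, fell 3.28-fold (6.79 ± 0.477 FPKM in 5-FU and 22.2 ± 3.12 FPKM in PBS, limma adjusted p = 0.00354), and the receptor kinase gene Grk6 fell 2.11-fold (limma adjusted p = 0.00619). The clathrin light chain genes Clta and Cltb rose 1.60-fold and 1.56-fold, the call of Cltb being lost with no filter on low values. When either 5-FU library was left out, 0 genes of this list passed in limma (2 lower and 1 higher at an unadjusted p under 0.05 without 5-FU replicate 1, 3 and 1 without 5-FU replicate 2), and the list held 4 lower with the replicate number as a block, with median-ratio scaling or with no filter.

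Other genes of the arrestin fold were few. Of 4 tested, 2 fell and 0 rose past the limma threshold, where 31.2% of all tested genes fell and 22.1% rose. At an unadjusted limma p under 0.05, 3 were lower and 1 higher. Vps26c fell 2.65-fold (7.19 ± 0.738 FPKM in 5-FU and 19.1 ± 5.68 FPKM in PBS, limma adjusted p = 0.0121) and the retromer subunit gene Vps26b 1.42-fold (limma adjusted p = 0.0323). Vps26a, the other retromer subunit gene, named after its value was seen, measured 43.5 and 46.7 FPKM in 5-FU and 34.3 and 37.0 FPKM in PBS (limma adjusted p = 0.0588). The visual arrestin genes Sag and Arr3 were at most 0.204 FPKM, and Arrdc5 was listed at 0 in all 4 libraries. The Vps26b call was lost with median-ratio scaling, with quantile normalization and with the replicate number as a block, and that of Vps26c with no filter. Without either 5-FU library 0 genes passed in limma (1 lower and 0 higher at an unadjusted p under 0.05), and without either PBS library 3 were lower and 1 higher.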

How the data were processed

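The authors deposited 1 table of FPKM values for 36445 genes, made from polyadenylated RNA per the labels' protocols. STAR 2.4.1a, Picard 2.9.0 and GRCm38 are named in the submitters' processing notes, without their roles. No source used here gives the counting program, annotation or strand setting. Gene IDs were matched to GENCODE M21 on GRCm38 (36379 of them) for coordinates and exonic lengths, from which depth was estimated. On that basis 63.1% to 65.1% of the values below 100 reads were whole to a tolerance of 0.02 reads, so depths are estimates. Promoters are RefSeq windows (GRCm38.p6, 250 bases before to 50 after the start), found for 7 of the 9 genes; protein sequences were not analysed here.

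Groups were compared with limma 3.58.1 in R 4.3.3 (trended eBayes) on log2(FPKM + 1). Tested genes reached 1 FPKM in 2 or more libraries, and the threshold was a Benjamini-Hochberg adjusted p under 0.05, two-sided. The script was tested on simulated data with the same spread per gene in both groups, so the wider spread of the PBS libraries was not simulated. For low genes a log2 difference understates the change. Fold values are ratios of mean FPKM. An exact permutation test of 2 against 2 libraries cannot pass and was left out. Whether replicates were separate cultures is not in the labels, so p-values measure only the spread between these libraries, which may be technical.

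The members and the 8 lists were chosen with earlier results of these data known. From each list the text names up to 2 genes past the threshold per direction, those with the largest differences, and for Txnip and Arrb1 the 5 genes nearest in profile. Other genes are said to be named after their values were seen, or are given as too low to test. Alternatives were pseudocounts of 0.1 and 0.5, no filter, a minimum mean of 5 FPKM, quantile normalization, median-ratio scaling, the replicate number as a block, and leaving out each library.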

Additional observations from a re-analysis of the deposited data

How the results depend on the processing

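The 8 tested members kept the sign of their log2 difference in all 11 alternative settings. Txnip ranged from 3.06 to 3.34, Arrb1 from -4.44 to -3.57, Arrdc1 from -1.59 to -1.06, Arrdc2 from -0.86 to -0.43, Arrdc3 from -1.27 to -0.26, Mlxip from -0.69 to -0.11, Mlx from 0.26 to 0.48 and Arrb2 from 0.19 to 0.41. Arrdc4 was below the filter in every setting but the one with no filter and was not compared. With no filter on low values, the lists held 1 arrestin-fold gene lower, 0 glucose and 0 NEDD4-family genes higher, and 1 kinase or factor gene higher. At a mean of at least 5 FPKM, fewer genes were tested and 2158 fell over all genes, with 0 MondoA and ChREBP targets and 0 NEDD4-family genes higher. Median-ratio scaling gave 3 members higher, 1 arrestin-fold gene higher and 1 lower, and 1 Mlx or Max partner higher. Quantile normalization gave 2 members lower, 1 arrestin-fold gene lower and 1 Mlx or Max partner higher. Libraries of the same replicate number showed no shared shift (correlation of deviations across genes -0.0101, over 11644 genes). This cannot tell whether they were prepared together. The replicate block gave 2484 genes higher and 3553 lower over all genes, against 2578 and 3628 without it. With the block, 4 members were lower and 1 Mlx or Max partner higher.

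Leaving out each library in turn gave the following ranges: 259 to 4385 higher and 237 to 5249 lower over all tested genes; 1 to 3 higher and 1 to 5 lower among the members; 1 to 20 and 5 to 57 among all related genes; 0 to 1 and 0 to 3 of the arrestin fold; 0 to 2 and 0 to 6 Mlx and Max partners; 0 to 1 and 4 to 18 glucose genes; 1 to 1 and 1 to 11 MondoA and ChREBP targets; 0 to 8 and 1 to 4 thioredoxin genes; 0 to 1 and 0 to 7 NEDD4-family genes; 0 to 3 and 0 to 7 receptor kinases and clathrin adaptors; 0 to 4 and 0 to 5 kinases and factors. The low ends came without a 5-FU library. Depth limits Arrdc4 and Mlxipl, which had too few reads to compare.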

Other observations

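Among genes other than Txnip whose promoter window held the paired E-box-like motif, Rbbp4, which encodes a histone-binding protein, rose (33.9 ± 1.21 FPKM in 5-FU and 22.1 ± 2.82 FPKM in PBS, SD, n = 2 each, limma adjusted p = 0.0205). Nfkb2, an NF-kB subunit gene, fell (30.8 ± 1.76 FPKM in 5-FU and 52.5 ± 12.9 FPKM in PBS, limma adjusted p = 0.0328), as did A430005L14Rik (5.33 ± 0.0728 FPKM in 5-FU and 10.8 ± 1.95 FPKM in PBS, limma adjusted p = 0.0122). The adaptor gene Fnip1, whose protein works with AMPK, held the motif and measured 19.5 and 22.2 FPKM in 5-FU and 12.5 and 25.1 FPKM in PBS (limma adjusted p = 0.618). These genes were picked by promoter letters after the data had been seen.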
